A study of Mus musculus with 6 samples.

Results

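Sensors of cytosolic RNA and DNA were followed across the Neuro-2a transcriptome as 10 genes, taken by symbol as sensors, adaptors and effectors that transfected nucleic acid could engage: Ddx58, Ifih1, Dhx58, Mavs, Tlr3, Mb21d1, Tmem173, Eif2ak2, Adar and Zc3hav1. All 10 were found among the 21878 rows of the table. Neuro-2a is an established mouse neuroblastoma line with features of sympathetic neuron precursors. The 6 RNA sequencing libraries fell into 3 groups of 2, namely cells overexpressing the long noncoding RNA lncPim1, cells in which lncPim1 was lowered by RNA interference (knockdown), and control cells labelled wild type. The labels name no empty vector for the overexpressing cells, no scrambled RNA for the knockdown cells and no transfection of the control cells, so the delivery of nucleic acid and the change in lncPim1 cannot be told apart in either contrast against control. Whether replicate libraries were made from separate cultures is not stated, and p-values measure only the spread between libraries, which may be technical. lncPim1 itself was not analysed here, so the labels were not checked on the targeted RNA.

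Cells recognise foreign RNA in the cytosol through the RIG-I-like helicases, RIG-I (Ddx58), MDA5 (Ifih1) and LGP2 (Dhx58), of which the first pair carry signalling domains that engage the mitochondrial adaptor MAVS while LGP2 lacks them and modulates the others. Cytosolic DNA is recognised by cGAS (Mb21d1), whose cyclic dinucleotide product activates the adaptor STING (Tmem173), and RNA in endosomes by the receptor TLR3. MAVS, STING and TLR3 lead through kinases such as TBK1 to interferon, which in turn raises the transcription of many sensors. The kinase PKR (Eif2ak2) stops translation on binding long RNA duplexes, ADAR1 (Adar) edits such duplexes, and ZAP (Zc3hav1) binds CpG-rich RNA and recruits decay.

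Promoters are shown first because interferon acts on several of these genes through the interferon-stimulated response element (ISRE). RefSeq promoter windows on build GRCm38.p6, from 250 bases before to 50 after the start site, were matched for 8 members (not Dhx58 and Tmem173), with 10 windows in all. The ISRE core was taken as GAAA, any 2 bases and GAAA, or TTTC, any 2 bases and TTTC on the other strand. It was found in 3.44% of all 32851 promoter windows and in 3.99% of 27025 genes. Among the 8 members matched, it was found in the windows of 3, Ddx58, Ifih1 and Eif2ak2. Each match lay just downstream of the start site, beginning at base 3 in Ddx58, 33 in Ifih1 and 19 in Eif2ak2. The stretches around them are given 5′ to 3′ along each gene, which all lie on the minus strand, with the match in capitals, at chr4:40239804-40239833, chr2:62646206-62646233 and chr17:78882535-78882564.
Ddx58: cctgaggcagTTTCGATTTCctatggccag
Ifih1: gaagagaatcGAAACAGAAAccgatctg
Eif2ak2: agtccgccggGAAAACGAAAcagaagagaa
The interferon-gamma-type element TTCNNNGAA, which reads the same on both strands, was found in windows of Eif2ak2 and Adar (1 of its 3 windows). It was found in 8.30% of all windows and in 9.55% of genes. A match to the NF-kB consensus was found in windows of Tlr3 and Zc3hav1, in 8.46% of all windows and in 9.55% of genes. No match to the ISRE core was found in the windows of Zc3hav1, Mavs, Mb21d1, Tlr3 or Adar, the last with 3 windows. The core was searched at a fixed spacing, so elements with another spacing would be missed. The matches above describe letters, not binding. Of the 3 members with an ISRE core, Ddx58 passed the test of knockdown against control, Eif2ak2 did not, and Ifih1 was too low to be tested.

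The deposited values are FPKM, fragments scaled to transcript length and library total, so levels can be set between genes. In control cells the highest members were Adar, at 12.8 ± 0.855 FPKM (SD, n = 2), and Zc3hav1, at 12.7 ± 0.281 FPKM, whose libraries overlapped. Mavs (7.39 ± 0.352 FPKM) and Eif2ak2 (6.45 ± 0.215 FPKM) followed without overlap. Mb21d1 stood at 3.18 ± 0.104 FPKM, above Tmem173 (2.504 ± 0.00041 FPKM) and Ddx58 (2.49 ± 0.212 FPKM), which overlapped. Tlr3 (0.731 ± 0.0965 FPKM), Dhx58 (0.631 ± 0.212 FPKM) and Ifih1 (0.397 ± 0.130 FPKM) were the lowest, and neighbours among these 3 overlapped. The helicase and endosomal receptor that recognise long RNA duplexes, MDA5 and TLR3, were thus both listed below 1 FPKM in every library of the 3 groups. The order under knockdown differed from that in control cells by the places of Zc3hav1 (first), Eif2ak2 (above Mavs, with overlap), Ddx58 (above Mb21d1, with overlap) and Dhx58, which stood above Tlr3 with no overlap.

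**Figure D1:**
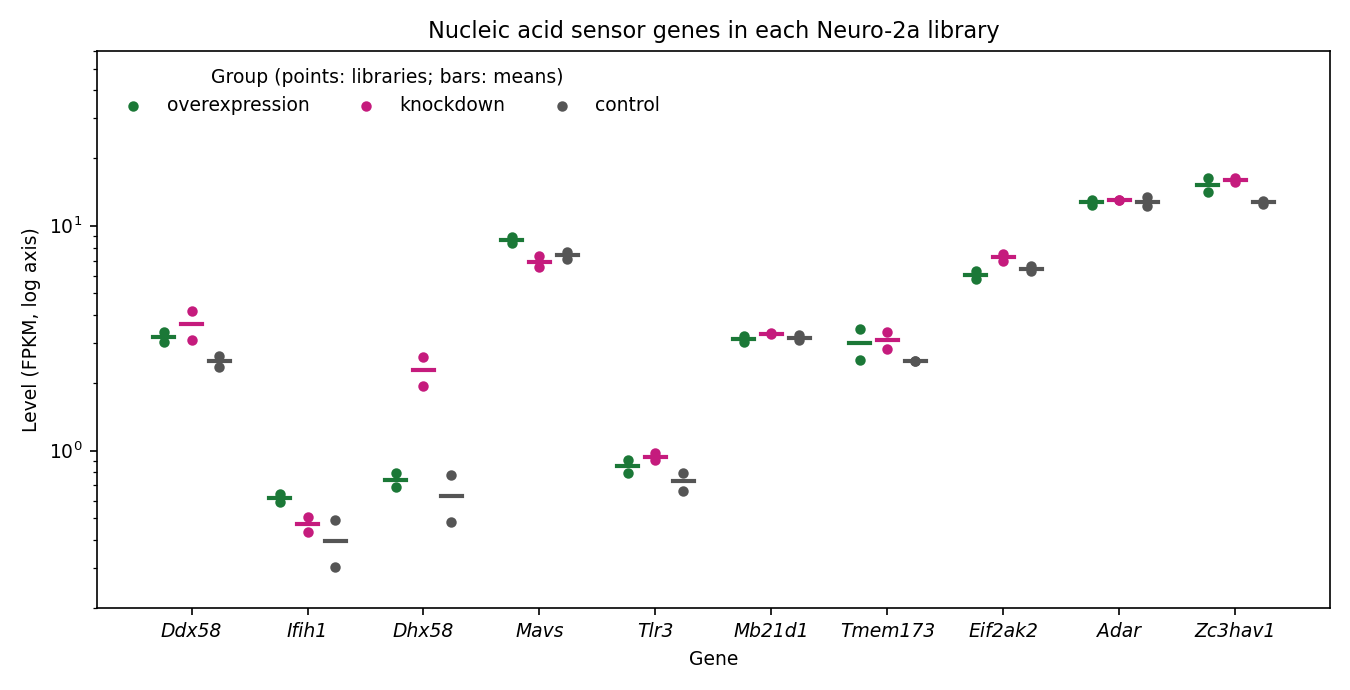
FPKM of each of the 10 genes (log axis) in overexpression, knockdown and control libraries, with points for libraries and bars for the mean of each group. Dhx58 stands at 2.62 and 1.93 FPKM under knockdown, and at 0.781 FPKM or less in control cells, while Adar lies between 12.2 and 13.4 FPKM in all 6 libraries.

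Tests used limma on log2(FPKM + 1) with Benjamini-Hochberg adjustment over 10721 genes averaging 1 FPKM or more, 8 members among them, and a gene was called at an adjusted p under 0.05. The added 1 makes these fold changes smaller than the ratio of FPKM for genes at low levels. Ifih1 and Tlr3 did not pass the filter. Dhx58 passed it only through the knockdown libraries, since its mean without them was 0.687 FPKM, so its presence among the tested genes already required it to differ, and its p-values carry that limit. The overexpression and knockdown contrasts against control rest on 1 pair of control libraries.

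Under knockdown, LGP2, RIG-I and ZAP transcripts were higher and no member was lower. These 3 of 8 tested members, Dhx58, Ddx58 and Zc3hav1, compare with 14.8% of all tested genes called higher and 31.3% called lower in that contrast (46.2% in either direction), and the count of 3 includes Dhx58, chosen by the filter as stated. Under overexpression limma called 0 of 8 members, with 3 at an unadjusted p under 0.05 (Ddx58, Mavs and Zc3hav1, all toward higher values), where 0.69% of all tested genes were called higher and 0.849% lower (1.54% in either direction). No other tool was run on these values. Read without a test, the libraries lay apart from those of control cells in 6 of 8 tested members toward higher values under knockdown and in 0 toward lower (26.5% and 47.9% of all tested genes). Under overexpression they lay apart in 4 toward higher and 1 toward lower (23.3% and 26.2%). Between overexpression and knockdown, 1 member was higher and 4 lower under overexpression without overlap (47.2% and 24.7%).

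**Figure D2:**
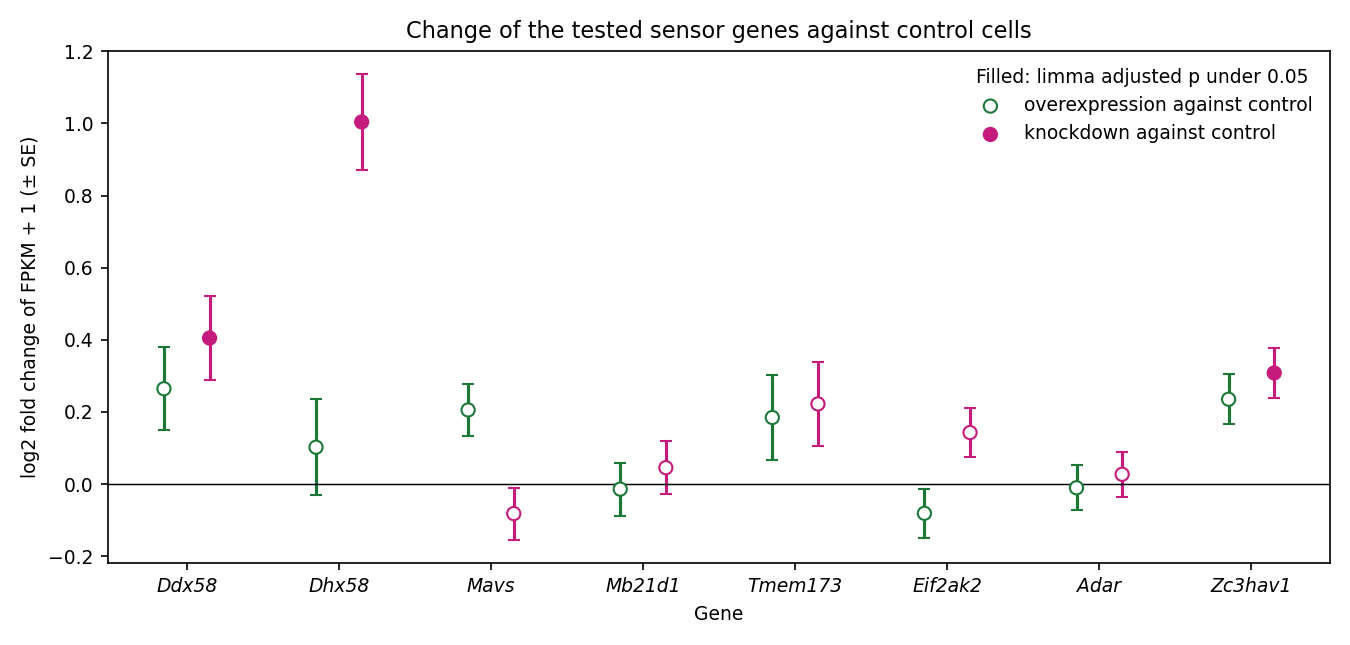
log2 fold change of FPKM + 1 with its SE for the 8 tested genes, overexpression against control and knockdown against control, with filled points for an adjusted p under 0.05. Dhx58 stands apart under knockdown at 1.00, and Ddx58 and Zc3hav1 lie above 0 in both contrasts.

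Among the helicases, Dhx58, which encodes LGP2, had 0.794 and 0.693 FPKM under overexpression, 2.62 and 1.93 FPKM under knockdown, and 0.781 and 0.481 FPKM in control cells. Both knockdown libraries were above the other 4, and the overexpression and control libraries overlapped. Its mean under knockdown was 3.61 times that of control cells. On the log2 scale Dhx58 rose by 1.00 ± 0.13 (SE) under knockdown (limma, adjusted p = 6.16e-04), a p-value that carries the filter's limit. With no filter on low values the adjusted p was 0.00853 (limma). With a pseudocount of 0.1 in place of 1 the log2 fold change was 1.72. Dhx58 was also lower under overexpression than under knockdown, with a log2 fold change of -0.90 ± 0.13 (limma, adjusted p = 0.00143, and 0.0134 with no filter). Against control it was not called under overexpression, at 0.10 ± 0.13 (limma, adjusted p = 0.752). On GENCODE M21 (GRCm38), Dhx58 lies on chromosome 11 from 100694884 to 100704271 on the minus strand. It is overlapped from the other strand by the antisense gene Dhx58os, which shares 141 of its 3272 exonic bases, and, without a stated strand setting for the counting, reads from those bases cannot be assigned.

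Ddx58, which encodes RIG-I and lies on chromosome 4 from 40203773 to 40239828, had 3.36 and 3.03 FPKM under overexpression, 4.20 and 3.11 FPKM under knockdown, and 2.34 and 2.64 FPKM in control cells. All 4 libraries of the manipulated groups were above both control libraries, and the knockdown libraries spread more widely than those of either other group. Ddx58 rose by 0.41 ± 0.12 under knockdown (limma, adjusted p = 0.0194), and under overexpression its log2 fold change was 0.26 ± 0.12 (limma, adjusted p = 0.287). The knockdown call was lost without knockdown replicate 1 (log2 fold change 0.24, limma, adjusted p = 0.118), without control replicate 1 (0.34, adjusted p = 0.108) and with no filter on low values (adjusted p = 0.0797). Overexpression and knockdown libraries overlapped in Ddx58 (log2 fold change -0.14 ± 0.12, limma, adjusted p = 0.353).

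Ifih1, which encodes MDA5 and lies on chromosome 2 from 62595798 to 62646255, had 0.591 and 0.640 FPKM under overexpression, 0.434 and 0.509 FPKM under knockdown, and 0.305 and 0.489 FPKM in control cells. Its highest pair was that of the overexpressing cells, unlike Dhx58 and Ddx58, whose highest library was a knockdown one. With no filter on low values Ifih1 had a log2 fold change of 0.21 ± 0.07 under overexpression (limma, adjusted p = 0.314) and 0.08 ± 0.07 under knockdown (adjusted p = 0.491).

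The balance between the helicases was also read as a ratio of FPKM within each library, which library scaling does not alter, and these ratios were chosen after the values were seen. Dhx58 over Ddx58 was 0.236 and 0.229 under overexpression, 0.624 and 0.621 under knockdown, and 0.333 and 0.182 in control cells. The knockdown ratios lay close together although knockdown replicate 1 was higher than replicate 2 in both genes, and they were above the other 4 libraries. Ifih1 over Ddx58 ranged from 0.176 to 0.211 under overexpression, from 0.103 to 0.164 under knockdown and from 0.130 to 0.185 in control cells. With 2 libraries against 2, a two-sided exact permutation test cannot give a p below 0.333, so these ratios were not tested.

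Mavs, the adaptor that both signalling helicases engage, lies on chromosome 2 from 131234063 to 131248025. It had 8.92 and 8.42 FPKM under overexpression, 6.54 and 7.32 FPKM under knockdown, and 7.14 and 7.63 FPKM in control cells. The overexpression libraries were above all the others, and the knockdown and control libraries overlapped. Mavs was higher under overexpression than under knockdown by 0.29 ± 0.07 (limma, adjusted p = 0.0136). Against control it was not called in either group, at 0.21 ± 0.07 under overexpression (limma, adjusted p = 0.195) and -0.08 ± 0.07 under knockdown (adjusted p = 0.382). The call between the manipulated groups was lost without overexpression replicate 1 (limma, adjusted p = 0.0746) and without knockdown replicate 1 (0.0800). In that contrast limma called 1 of 8 members higher and 2 lower under overexpression, against 28.1% of all tested genes higher and 12.4% lower (40.5% in either direction).

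Tlr3, the endosomal receptor, had 0.793 and 0.912 FPKM under overexpression, 0.908 and 0.973 FPKM under knockdown, and 0.663 and 0.799 FPKM in control cells. The knockdown libraries lay above the control libraries, and the overexpression libraries overlapped with both. With no filter on low values its log2 fold change was 0.10 ± 0.07 under overexpression (limma, adjusted p = 0.602) and 0.17 ± 0.07 under knockdown (adjusted p = 0.126). Tlr3 lies on chromosome 8 from 45395665 to 45411080, and an antisense gene, Gm45542, shares 381 of its 5207 exonic bases.

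In the DNA-sensing arm, Mb21d1, which encodes cGAS and is named Cgas in the annotation, had 3.25 and 3.04 FPKM under overexpression, 3.34 and 3.29 FPKM under knockdown, and 3.11 and 3.25 FPKM in control cells. All 6 values lay between 3.04 and 3.34 FPKM. Its log2 fold change was -0.01 ± 0.07 under overexpression (limma, adjusted p = 0.945) and 0.05 ± 0.07 under knockdown (adjusted p = 0.642). Mb21d1 lies on chromosome 9 from 78430526 to 78443237, and the pseudogene Gm8093 on the other strand shares 201 of its 4126 exonic bases.

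Tmem173, which encodes STING and lies on chromosome 18 from 35733679 to 35740554, had 2.54 and 3.48 FPKM under overexpression, 3.35 and 2.84 FPKM under knockdown, and 2.504 and 2.504 FPKM in control cells. Each library of the manipulated groups was above the control pair, overexpression replicate 1 only just so. The spread between replicates was wide, and the log2 fold changes of 0.18 ± 0.12 under overexpression (limma, adjusted p = 0.470) and 0.22 ± 0.12 under knockdown (adjusted p = 0.151) were not called.

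Of the effectors that bind foreign or double-stranded RNA, Zc3hav1, which encodes ZAP and lies on chromosome 6 from 38305286 to 38354603, had 16.2 and 14.2 FPKM under overexpression, 15.6 and 16.4 FPKM under knockdown, and 12.5 and 12.9 FPKM in control cells. All 4 libraries of the manipulated groups were above both control libraries, and the manipulated groups overlapped. Zc3hav1 rose by 0.31 ± 0.07 under knockdown (limma, adjusted p = 0.00722), a call kept in all 15 alternatives (highest adjusted p = 0.0482). Under overexpression its log2 fold change was 0.24 ± 0.07 (limma, adjusted p = 0.140), not called. The groups sharing this direction also share the control libraries.

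Eif2ak2, which encodes PKR and lies on chromosome 17 from 78852564 to 78882573, had 6.27 and 5.82 FPKM under overexpression, 7.46 and 7.001 FPKM under knockdown, and 6.30 and 6.61 FPKM in control cells. The 3 groups did not overlap, with knockdown the highest and overexpression the lowest. Eif2ak2 was lower under overexpression than under knockdown, with a log2 fold change of -0.22 ± 0.07 (limma, adjusted p = 0.0285). That call was lost without overexpression replicate 2 (limma, adjusted p = 0.148), without knockdown replicate 1 (0.134) and with no filter on low values (0.0576). Against control it was not called, at -0.08 ± 0.07 under overexpression (limma, adjusted p = 0.593) and 0.14 ± 0.07 under knockdown (adjusted p = 0.114). After scaling each library by its median log ratio, the knockdown change was 0.22 and was called (limma, adjusted p = 0.0295). On the other strand, the noncoding gene Gm26637 shares 174 and the ribosomal RNA gene n-R5s29 shares 47 of the 5113 exonic bases of Eif2ak2. Gm26637 stood at 0.103 FPKM or less in every library.

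Adar, which encodes the editing enzyme ADAR1 and lies on chromosome 3 from 89715022 to 89753446, had 13.0 and 12.4 FPKM under overexpression, 13.1 and 13.0 FPKM under knockdown, and 12.2 and 13.4 FPKM in control cells. The control libraries spanned those of both manipulated groups. Its log2 fold change was -0.01 ± 0.06 under overexpression (limma, adjusted p = 0.954) and 0.03 ± 0.06 under knockdown (adjusted p = 0.745). The 3′ end of Adar overlaps Chrnb2, a nicotinic receptor subunit gene on the other strand, over 1365 of its 8118 exonic bases. Chrnb2 stood at 9.13 and 8.82 FPKM under overexpression, 8.58 and 8.32 FPKM under knockdown, and 9.26 and 8.60 FPKM in control cells, so reads from the shared bases could enter either gene.

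Within each library, Zc3hav1 over Adar was 1.25 and 1.14 under overexpression, 1.20 and 1.26 under knockdown, and 1.03 and 0.964 in control cells. The ratio was above both control values in all 4 libraries of the manipulated groups. Eif2ak2 over Mavs was 0.704 and 0.692 under overexpression, 1.14 and 0.957 under knockdown, and 0.883 and 0.865 in control cells. Here the manipulated groups lay on opposite sides of the control cells.

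**Figure D3:**
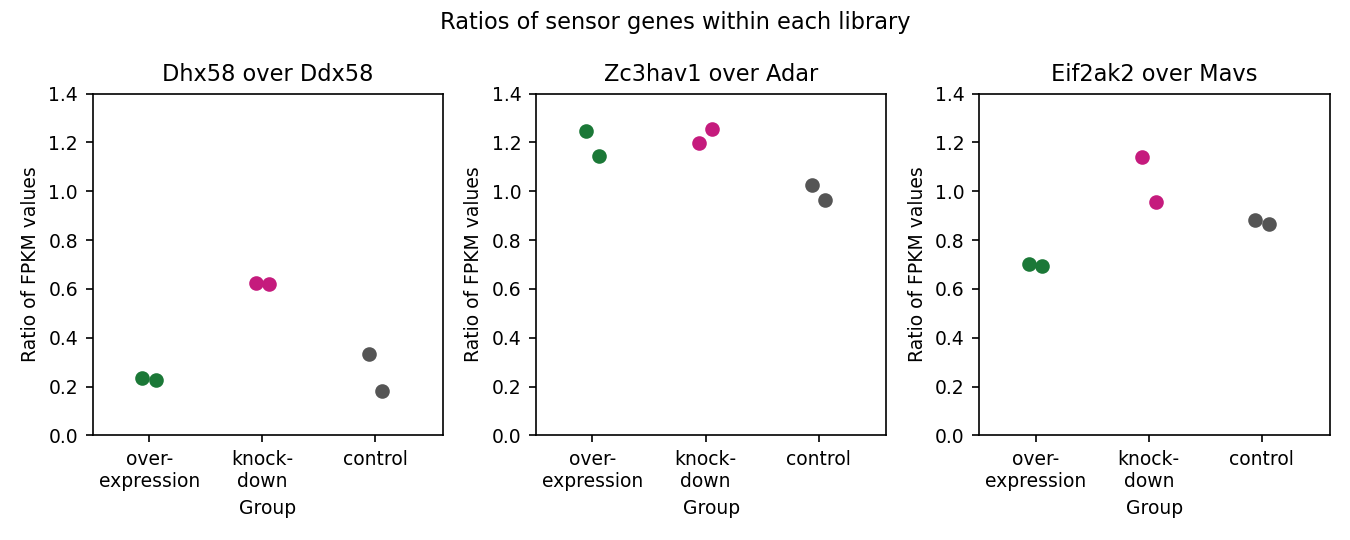
Ratios of FPKM values within each library for Dhx58 over Ddx58, Zc3hav1 over Adar and Eif2ak2 over Mavs, by group, with 1 point a library. The knockdown points of Dhx58 over Ddx58, 0.624 and 0.621, stand above the other 4, and the control points of Zc3hav1 over Adar, 1.03 and 0.964, below the other 4.

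For each member called against control, the tested genes averaging 5 FPKM or more whose control-centred log2 values lay nearest over the 6 libraries were listed, out of 7495 genes. Nearest to Dhx58 were Slc47a1, a cation and toxin exporter gene, with a mean absolute difference of 0.0364, and Ltk, a receptor tyrosine kinase gene, with 0.102. Slc47a1 stood at 3.85 and 3.47 FPKM under overexpression, 8.82 and 7.66 FPKM under knockdown, and 3.73 and 3.03 FPKM in control cells. Both Slc47a1 and Ltk reached an average of 5 FPKM only through the knockdown libraries (means without them 3.52 and 3.85 FPKM). The added 1 also brings Slc47a1 and Dhx58 closer, since their knockdown means were 2.44 and 3.61 times those of control cells. Nearest to Ddx58 were Tmem203, a gene for a small membrane protein (0.0412), and Apol9a, of the apolipoprotein L family (0.0413), whose near copy Apol9b makes its reads uncertain. Nearest to Zc3hav1 were Cntnap1, which encodes an axonal adhesion protein (0.0289), and Jmjd1c, of the histone demethylase family (0.0311). Likeness over 6 libraries of 3 groups says nothing of shared control.

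The rest of the pathways was read from 9 lists drawn from general knowledge. Facts of the whole series that touch them are the following. Summed FPKM was 294510 and 303139 under overexpression, 277508 and 272528 under knockdown, and 298032 and 305463 in control cells. The median change of all tested genes was -0.00307 under overexpression and -0.07 under knockdown on the log2 scale, and median log ratio scaling moved the knockdown calls over all genes to 2245 higher and 2286 lower, in place of 1590 and 3358. Quantile normalization gave 2003 higher and 2292 lower. All these counts are out of 10721 tested genes, and the scaled splits of the lists below stand beside them. Of 16 markers of sympathetic neuroblasts 13 were tested, with Phox2a at 147.2 to 236.7 FPKM over the 6 libraries, while the noradrenaline-synthesis gene Dbh stood at 0.494 FPKM or less. The 16 summed to 1029 and 1131 FPKM under overexpression, 876 and 893 FPKM under knockdown, and 1226 and 1197 FPKM in control cells. Under overexpression 4 of the 13 were called lower and 0 higher, beside 0.849% and 0.69% of all tested genes. Under knockdown 8 were called lower and 1 higher (median -0.40), beside 31.3% and 14.8%. The 12 leukocyte markers summed to 5.94 and 5.12 FPKM under overexpression, 9.82 and 10.6 FPKM under knockdown, and 7.57 and 6.98 FPKM in control cells. The knockdown sum was the highest. Of the 12, Lyz2 and Cd68 passed the filter, Cd68 only through the knockdown libraries. Cd68 had 0.528 and 0.570 FPKM under overexpression, 3.31 and 4.31 FPKM under knockdown, and 0.348 and 0.397 FPKM in control cells. Lyz2 was called lower under knockdown. Ptprc, Adgre1, Itgam and Csf1r, which define leukocytes and macrophages, stood at 0.0306 FPKM or less in every library. Fcer1g, a receptor chain gene of myeloid cells, had 0.331 and 0 FPKM under overexpression, 0.554 and 1.04 FPKM under knockdown, and 0 and 0 FPKM in control cells. Tyrobp, Aif1 and Itgam were also higher in both knockdown libraries than in either control library, at 0.643 FPKM or less. Cd14 and Csf1r were lower in both knockdown libraries than in either control library, at 0.116 FPKM or less in these libraries. The 8 fibroblast markers summed to 2.41 and 2.16 FPKM under overexpression, 2.72 and 2.82 FPKM under knockdown, and 1.96 and 2.39 FPKM in control cells. The 16 digestive-tract markers summed to 37.5 and 50.9 FPKM under overexpression, 9.56 and 11.1 FPKM under knockdown, and 42.0 and 34.2 FPKM in control cells. Of 15 tested, 13 were called lower and 2 higher under knockdown (median -1.67), beside 31.3% and 14.8% of all tested genes. Under overexpression 1 was called lower and 2 higher, beside 0.849% and 0.69%. The part of these transcripts in the sensors' changes was not tested. In a bulk library, a smaller share of cells that express a gene and less RNA per cell cannot be told apart.

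The list of RIG-I and MDA5 partners held regulators of these receptors and of MAVS as well as downstream genes. Of its 26 tested genes, 1 was higher and 11 lower under knockdown, where 14.8% of all tested genes were higher and 31.3% lower. The list median was -0.15, beside -0.07 for all tested genes, and limma called 0 under overexpression (4 at an unadjusted p under 0.05; median 0.02). With median log ratio scaling the knockdown split was 5 higher and 9 lower, and with quantile normalization 3 and 7. Pcbp2, a negative regulator of MAVS, had 64.4 and 63.8 FPKM under knockdown and 94.4 and 90.3 FPKM in control cells, a log2 fold change of -0.52 ± 0.05 (limma, adjusted p = 1.64e-04). Ywhae, the 14-3-3 epsilon chaperone of RIG-I, fell by 0.53 ± 0.06 and Ppp1ca, a phosphatase that activates RIG-I and MDA5 in human cells, by 0.39 ± 0.05. Traf3, which links MAVS to TBK1, had 4.27 and 4.64 FPKM under knockdown and 5.87 and 6.07 FPKM in control cells. Trim25, the ubiquitin ligase of RIG-I and a cofactor of ZAP, fell by 0.16 ± 0.05 (limma, adjusted p = 0.0358), a call lost in 10 of 15 alternatives, both scalings included. The 1 higher gene was Irf5, an interferon regulatory factor, by 0.53 ± 0.08, at 4.18 and 3.91 FPKM under knockdown and 2.43 and 2.55 FPKM in control cells. Of the 3 partners too low to be tested, Irf7 had 3.15 and 0.770 FPKM under knockdown and 0.180 and 0.238 FPKM in control cells. Ikbke, at 0.333 FPKM or less, was also higher under knockdown without overlap, and Rnf135 overlapped. The kinase gene Tbk1 was not called under knockdown, at 18.4 and 17.5 FPKM against 16.2 and 16.7 FPKM in control cells (limma, adjusted p = 0.0982).

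Around cGAS and STING, of 21 tested genes 4 were higher and 5 lower under knockdown (median -0.05), beside 14.8% and 31.3% of all tested genes. The split was 6 and 3 with median log ratio scaling and 5 and 1 with quantile normalization. Limma called 0 under overexpression (1 at an unadjusted p under 0.05). Trex1, a DNA exonuclease, had 4.69 and 4.20 FPKM under knockdown and 3.09 and 3.07 FPKM in control cells (log2 fold change 0.41 ± 0.08). Enpp1, which degrades the cGAS product, rose by 0.53 ± 0.08 and Trim56, a ubiquitin ligase reported to act on STING, by 0.68 ± 0.08. Of other genes that degrade DNA or its precursors or hybrids, Rnaseh2a rose by 0.25 ± 0.07, a call lost in 3 of 15 alternatives, and Samhd1 (-0.15 ± 0.06), Rnaseh2b (-0.19 ± 0.10) and Rnaseh2c (0.10 ± 0.11) were not called. Hmgb2, a chromatin protein that binds immunogenic DNA, fell by 0.48 ± 0.06 and G3bp1, a stress granule protein that promotes cGAS binding, by 0.29 ± 0.04. The knockdown call of G3bp1 was lost with quantile normalization (limma, adjusted p = 0.0930).

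In the endosomal list, 3 of 11 tested genes were higher and 1 lower under knockdown (median 0.05), beside 14.8% and 31.3% of all tested genes. The split was 3 and 0 with median log ratio scaling. Limma called 0 under overexpression, with 3 at an unadjusted p under 0.05. Unc93b1, which carries nucleic acid receptors to endosomes, had 18.2 and 15.5 FPKM under knockdown and 12.5 and 13.1 FPKM in control cells (0.37 ± 0.08). Irak2, a signalling kinase gene, rose by 0.43 ± 0.09. Ticam1, the adaptor of TLR3, was not called, at 4.69 and 4.56 FPKM under knockdown and 4.44 and 3.59 FPKM in control cells. Tlr7, Tlr8 and Tlr9 stood at 0.0641 FPKM or less in every library.

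Of the 12 genes around PKR, 3 were higher and 3 lower under knockdown (median 0.04), beside 14.8% and 31.3% of all tested genes. The split was 4 and 1 with median log ratio scaling and 4 and 2 with quantile normalization. Limma called 0 under overexpression, with 2 at an unadjusted p under 0.05. The kinases of eIF2 moved in different directions under knockdown. Eif2ak1, the haem-regulated kinase, had 9.997 and 11.1 FPKM under knockdown and 16.1 and 16.7 FPKM in control cells (-0.59 ± 0.06), while Eif2ak4, the amino acid sensor GCN2, rose by 0.27 ± 0.07, a call lost without knockdown replicate 1 or control replicate 1 (highest adjusted p = 0.0797 of the alternatives). Ddit3, a transcription factor of the integrated stress response, rose by 0.63 ± 0.06 and Atf3 by 0.75 ± 0.11. Other genes of this list did not follow under knockdown. Atf4 (0.09 ± 0.05), Ppp1r15a (0.13 ± 0.12) and Ppp1r15b (0.004 ± 0.062) were not called. The kinase gene Eif2ak3 fell by 0.22 ± 0.06, a call kept in 11 of 15 alternatives. Prkra, the protein activator of PKR, was not called, at 10.5 and 8.53 FPKM under knockdown and 8.87 and 8.72 FPKM in control cells.

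Of 13 other proteins that bind RNA duplexes, 1 was higher and 6 lower under knockdown (median -0.14), beside 14.8% higher and 31.3% lower of all tested genes. The split was 1 and 6 with median log ratio scaling and 1 and 4 with quantile normalization, which ended the calls of Ilf2 and Dhx9. Limma called 0 under overexpression (1 at an unadjusted p under 0.05). Drosha, the nuclear nuclease of microRNA processing, had 17.1 and 17.6 FPKM under knockdown and 32.2 and 31.6 FPKM in control cells (-0.84 ± 0.05, limma, adjusted p = 5.37e-05). Its partner Dgcr8 rose by 0.24 ± 0.06, a call lost without knockdown replicate 2 and without control replicate 2. Nono and Sfpq, partner proteins of nuclear paraspeckles, fell by 0.68 ± 0.05 and 0.73 ± 0.08.

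Among partners of ZAP and genes of RNA decay, 4 of 23 were higher and 8 lower under knockdown (median -0.03), near the 14.8% and 31.3% of all tested genes. The split was 5 and 5 with median log ratio scaling and 6 and 4 with quantile normalization. Khnyn, the nuclease cofactor of ZAP, rose with Zc3hav1, at 8.54 and 8.04 FPKM under knockdown and 5.06 and 5.74 FPKM in control cells (0.54 ± 0.08). The exosome subunit Exosc4 fell by 0.36 ± 0.06. The count of 4 includes Zc3h12a, the RNA-cleaving Regnase-1, which also passed the filter only through the knockdown libraries (mean without them 0.973 FPKM). Under overexpression limma called Exosc5 higher and no other gene of the list, and that call was lost in 8 of 15 alternatives.

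In the interferon list, Ifnb1, Ifnl2 and Ifnl3 were listed at 0 in all 6 libraries. Of 11 tested receptors and factors of the interferon response 4 were higher and 1 lower under knockdown (median 0.11), beside 14.8% and 31.3% of all tested genes. The same list counts held after both scalings. Irf9, the DNA-binding subunit of the interferon-stimulated complex, had 2.99 and 2.83 FPKM under knockdown and 1.60 and 1.21 FPKM in control cells (0.71 ± 0.10). Its partner Stat2 rose by 0.33 ± 0.07 and Irf1 by 0.40 ± 0.06. The count of 4 includes Usp18, which removes ISG15 and, like Dhx58, passed the filter only through the knockdown libraries (mean without them 0.892 FPKM). The receptor kinase gene Jak1 fell by 0.64 ± 0.05. Under overexpression limma called 0 of these 11, with 2 at an unadjusted p under 0.05.

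A list of antiviral RNA sensors and effectors, mostly OAS and IFIT genes, was largely low, and 3 of its 14 genes were tested. Oasl2 had 5.36 and 4.18 FPKM under knockdown and 1.95 and 2.14 FPKM in control cells (0.91 ± 0.10, limma, adjusted p = 3.19e-04), and Oas1c rose by 0.42 ± 0.10, a call lost without knockdown replicate 1 and without control replicate 1. Members of the Oas1 group are close copies, so their reads are uncertain. Limma called 0 of these 3 under overexpression (2 at an unadjusted p under 0.05). Oasl1 was not called under knockdown (limma, adjusted p = 0.0588) and was called after both scalings, which gave 3 higher of 3. Of all 10721 tested genes, median log ratio scaling gave 2245 higher and quantile normalization 2003. Ifit3b stood at 0.0174 FPKM or less in every library.

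Of 17 tested interferon-induced outputs, 6 were higher and 1 lower under knockdown (median 0.19), beside 14.8% and 31.3% of all tested genes. The split was 9 and 0 with median log ratio scaling and 7 and 0 with quantile normalization. Under overexpression 3 were higher and 0 lower (median 0.15), beside 0.69% and 0.849% of all tested genes. Isg15, a ubiquitin-like modifier, was higher in both manipulated groups, at 16.1 and 16.8 FPKM under overexpression, 17.1 and 13.8 FPKM under knockdown, and 8.50 and 8.47 FPKM in control cells. The overexpression call of Isg15 was lost without control replicate 1 and with no filter on low values (limma, highest adjusted p = 0.0757 over its alternatives). Cxcl10, a chemokine gene, was called in both contrasts, by 0.72 ± 0.10 under overexpression and 0.50 ± 0.10 under knockdown. Its overexpression call was lost in 5 of 15 alternatives. Ccl5, another chemokine gene, had 5.19 and 4.16 FPKM under overexpression, 1.04 and 1.74 FPKM under knockdown, and 0.431 and 1.05 FPKM in control cells. It rose by 1.72 ± 0.19 under overexpression (limma, adjusted p = 0.00742), a call lost without overexpression replicate 1 and with no filter on low values. Ccl5 was also higher under overexpression than under knockdown, by 1.26 ± 0.19 (limma, adjusted p = 0.00163). Trim21, a cytosolic antibody receptor, rose by 0.65 ± 0.11 under knockdown, and Ifi27 by 0.70 ± 0.11. Between overexpression and knockdown, Irf9 (limma, adjusted p = 0.00218) and Oasl2 (0.00312) were lower under overexpression, and Isg15 (0.429) and Cxcl10 (0.117) were not called.

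**Figure D4:**
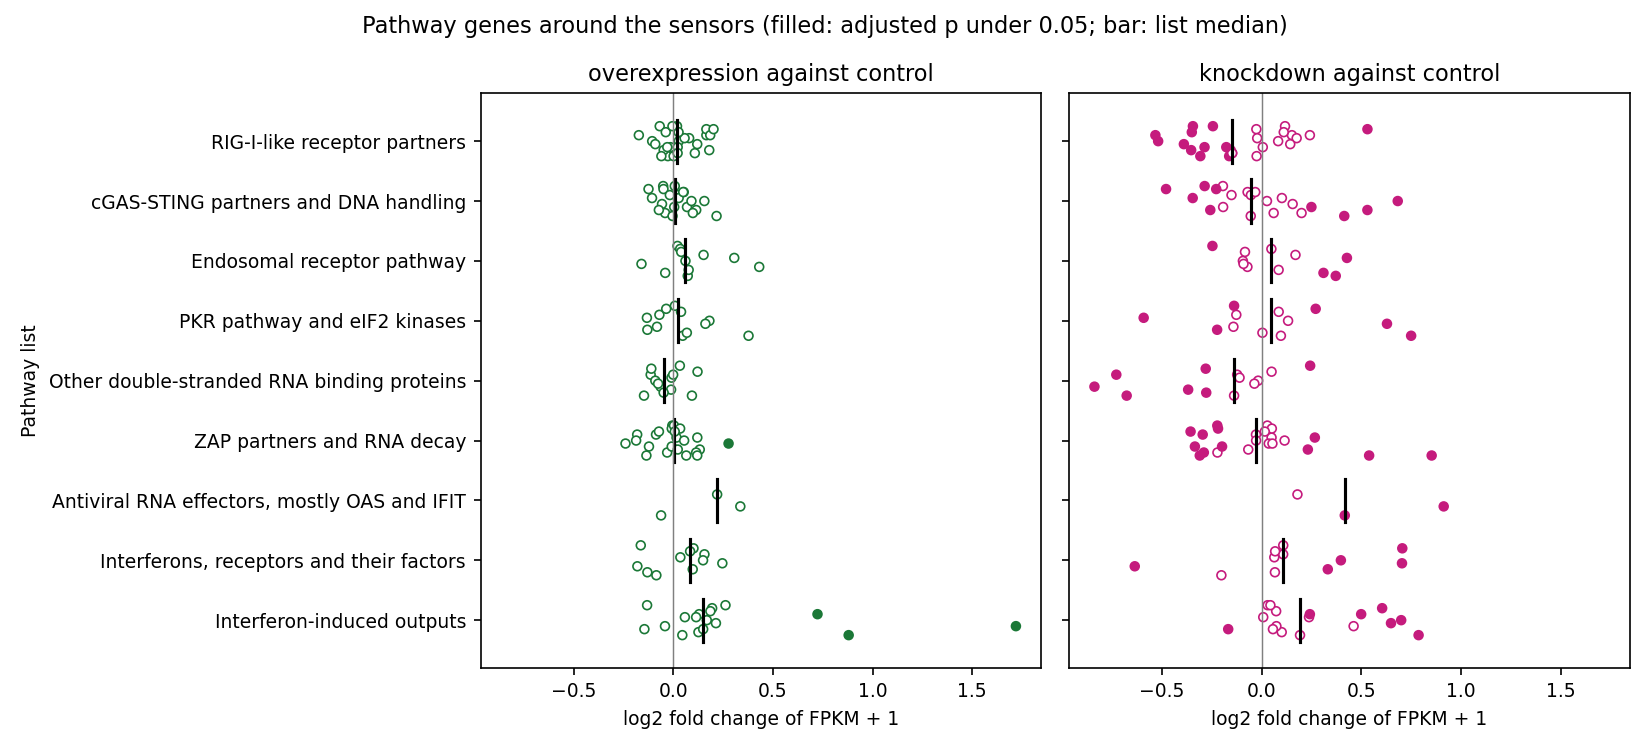
log2 fold change of FPKM + 1 of the tested genes in 9 pathway lists, overexpression against control on the left and knockdown against control on the right, with filled points for an adjusted p under 0.05 and a bar at each list's median. Filled points are few under overexpression (Exosc5, Isg15, Ccl5 and Cxcl10), and under knockdown they lie mostly below 0 for partners of the RIG-I-like receptors and mostly above 0 for the interferon lists.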

How the data were processed

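RNA from 6 Neuro-2a libraries was sequenced after a stranded mRNA preparation, per the labels' protocols. Build mm10 and the tools HISAT2, Trimmomatic, HTSeq, Cufflinks and DESeq are listed, without versions, in the submitters' processing notes. The authors deposited FPKM per gene. Whole counts and depth are unknown, so no counting intervals are given. Genes were tested with limma 3.58.1 in R 4.3.3 on log2(FPKM + 1), with 1 mean per group, an expression trend, 3 residual degrees of freedom and adjustment over 10721 genes averaging 1 FPKM or more. The procedure was tested on simulated data. The 10 members and all lists were chosen with earlier results of these data known. All members were described. In each list and contrast, up to 4 called genes with the smallest p were eligible to be named. Others named (Traf3, Irf7, Trex1, Tbk1, Samhd1, Rnaseh2a, Rnaseh2b, Rnaseh2c, Ticam1, Prkra, Eif2ak3, Atf4, Ppp1r15a, Ppp1r15b, Dgcr8, Stat2, Trim25, Oasl1, Phox2a and genes near 0) were chosen for their role after the values were seen. Ilf2, Dhx9, Ddx3x, Eif2s1 and Ifitm2 were named for their change with the scaling, and Bst2 for the difference between its knockdown replicates. Gene positions are from GENCODE M21 and promoters from RefSeq. The 15 alternatives changed the pseudocount, filter, scaling, trend, libraries fitted or replicate block, or left out 1 library.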

Additional observations from a re-analysis of the deposited data

How the results depend on the processing

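Limma called 0 members under overexpression in all 15 alternatives. Genes called there numbered 165, against 9 with no filter on low values, 97 with no expression trend, 66 with the replicate block and 14 to 172 when each replicate was left out in turn. The cause was not tested. Members called under knockdown numbered 3, and 1 with a filter at a mean of 5 FPKM, which removes Dhx58 and Ddx58 by construction. Ddx58 also lost its call with no filter on low values, without knockdown replicate 1 and without control replicate 1. Median log ratio scaling added Eif2ak2 to the members called. Between overexpression and knockdown 3 members were called, and 1 to 3 when each replicate was left out. The labels do not say whether samples that share a replicate number share anything else. Their deviations correlated at -0.211 (overexpression and knockdown), -0.117 (overexpression and control) and 0.00692 (knockdown and control), which cannot decide this. The block changed no member's call.

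Leaving out 1 replicate turned the sign of 7 log2 fold changes of members, none of them called. Over those fits, Dhx58 under overexpression ran from -0.031 to 0.24, Mb21d1 from -0.051 to 0.022 and Adar from -0.073 to 0.053. Adar under knockdown ran from -0.036 to 0.090. Between overexpression and knockdown, Ddx58 ran from -0.31 to 0.028, Tmem173 from -0.21 to 0.13 and Zc3hav1 from -0.17 to 0.019. With quantile normalization, Ddx3x (0.013), Eif2s1 (0.028) and Ifitm2 (0.024) changed sign under knockdown, as did Ddx3x between overexpression and knockdown (-0.027). It also brought the knockdown changes of Pcbp2 to -0.34, Ppp1ca to -0.19, Hmgb2 to -0.28, G3bp1 to -0.10 and Exosc4 to -0.22. A pseudocount of 0.1 raised that of Irak2 to 0.66.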

Other observations

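Chosen after the values were seen, the knockdown replicates differed in level in several lists. Replicate 1 was above replicate 2 in 6 of 8 tested members, 10 of 11 interferon receptors and factors, 9 of 11 endosomal genes, 15 of 21 genes around cGAS and STING and 11 of 17 interferon-induced outputs, against 50.9% of all tested genes. Other lists went the other way, with 3 of 12 genes around PKR, 4 of 13 other duplex-binding proteins and 4 of 13 neuroblast markers. Partners of RIG-I and MDA5 (15 of 26) and of ZAP with RNA decay (12 of 23) lay nearer the share of all genes. Ddx58 stood at 4.20 and 3.11 FPKM in these replicates, Usp18 at 2.28 and 1.43 FPKM, and Bst2 at 55.3 and 37.3 FPKM. Replicate 1 was the higher in 7 of 8 members in overexpressing cells, against 49% of all tested genes, and in 2 of 8 in control cells, against 42%.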
